A study of Mus musculus with 12 samples.

Results

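Odorant receptors are G protein-coupled receptors in the cilia of olfactory sensory neurons, and each mature neuron uses 1 allele of 1 receptor gene. Binding of an odorant activates the olfactory G protein (Gnal), adenylyl cyclase 3 (Adcy3) and a cyclic nucleotide-gated channel (Cnga2, Cnga4, Cngb1). Class II receptors, found in land vertebrates, make up most of the mouse repertoire and lie in clusters on many chromosomes. The receptors described here are the second part of the large cluster on mouse chromosome 2, Olfr1171 to Olfr1318, and their ligands are not part of the sources used here.

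The members are the genes whose symbol is Olfr followed by a number alone, from Olfr1171 to Olfr1318, apart from 7 numbers that the rule leaves out. Of the 148 numbers in the range, 111 had a probe set with a single gene symbol, and 104 of these are members. They are 104 of 1015 odorant receptors and of 19938 genes tested. RefSeq places all 104 on chromosome 2 and lists 103 as protein-coding and 1, Olfr1174, as a pseudogene. In the order of the chromosome the numbers run without exception upward, and the members fall into 2 blocks of 73 (Olfr1173 to Olfr1274) and 31 receptors (Olfr1275 to Olfr1317). Between the blocks RefSeq lists 287 other genes and 0 odorant receptors. Names of the MOR system, which groups receptors by protein similarity, put 101 members into 15 families. The other members are Olfr1173 and Olfr1252, which have no MOR name there, and Olfr1193, which has several.

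RNA was measured on 12 Mouse Gene 1.0 ST arrays, made from cells sorted out of dissociated olfactory mucosa. All mice carried S100a5-tauGFP, so that a green fluorescent protein marks cells in which the S100a5 locus is active. S100a5 encodes a calcium-binding protein whose transcription in sensory neurons depends on their activity. The 4 groups, each of 3 arrays, were GFP-positive cells of odor mice, GFP-negative cells of odor mice, GFP-positive cells of vehicle mice and GFP-negative cells of vehicle mice. Mice of both sexes, 7 to 12 weeks old, sat in a chamber with clean air flowing at 3.1 L per minute for 40 hours. From hour 26 onward a citrus accord, which the series title gives with 5%, was blown in for 10 seconds every 20 minutes in the odor group, and filtered air alone in the vehicle group. Each array holds RNA of 3 pooled mice, and with 18 mice in all a pool gave both fractions, so that odor and vehicle were compared over 3 pools each. The sources used here do not give the sex of the mice in a pool. Values are listed below by replicate number, 2, 3 and 4 for odor and 1, 2 and 4 for vehicle.

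The tissue's neurons were present in both fractions. The summed linear values of 9 mature neuron markers were 73908 to 76348 in GFP-positive arrays and 53319 to 63720 in GFP-negative arrays. Of these markers 8 were called higher in GFP-positive cells in odor mice and 8 in vehicle mice. Omp, the olfactory marker protein, was higher by 0.33 in odor mice (log2, limma adjusted p = 0.00412) and by 0.31 in vehicle mice (adjusted p = 0.00549). S100a5 itself read low on its probe set, with a mean of 6.35 for GFP-positive and 6.05 for GFP-negative cells of odor mice (difference 0.31, limma adjusted p = 0.0166), against 6.35 and 6.16 in vehicle mice (0.19, adjusted p = 0.123). The GFP-negative fraction also held other cells. The summed values of 12 leukocyte markers were 2303 to 3063 in GFP-positive arrays and 31172 to 42851 in GFP-negative arrays. All 12 were called lower in GFP-positive cells under both treatments, and so were all 5 markers of sustentacular cells. Of 4 progenitor markers, 3 were called lower in odor mice and 4 in vehicle mice. In such bulk samples fewer cells of a type and less RNA per cell cannot be told apart, so a receptor's level in a fraction reflects both the number of neurons that use it and the amount in each.

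The start of the coding sequence shows how alike some members are at that place. The rest of the coding sequence was not compared, and how far the members' probes can be told apart was not tested. RefSeq's table of 300-base windows on GRCm38.p6, 250 bases before to 50 after each annotated start, held 90 windows for 88 members. In 66 of these members the window's start is the ATG codon, so that the last 50 bases are coding sequence and the part before them need not be a promoter. The following 3 neighbours of family MOR234 lie next to one another on the plus strand at chr2:89993395-89993444, chr2:90002408-90002457 and chr2:90014932-90014981. They are shown from the ATG on, with capitals where they are not all the same. Olfr1261 and Olfr1262 share 49 of 50 bases, Olfr1262 and Olfr1263 share 49, and Olfr1261 and Olfr1263 share 48.
Olfr1261: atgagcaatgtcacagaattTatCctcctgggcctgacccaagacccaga
Olfr1262: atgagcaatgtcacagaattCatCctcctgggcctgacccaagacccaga
Olfr1263: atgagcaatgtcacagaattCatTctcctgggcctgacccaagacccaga

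The likeness of Olfr1262 and Olfr1263 goes on before the ATG, which is in capitals in the whole windows at chr2:90002158-90002457 and chr2:90014682-90014981 (plus strand). The longest run of letters that both windows share is 48 bases.
Olfr1262: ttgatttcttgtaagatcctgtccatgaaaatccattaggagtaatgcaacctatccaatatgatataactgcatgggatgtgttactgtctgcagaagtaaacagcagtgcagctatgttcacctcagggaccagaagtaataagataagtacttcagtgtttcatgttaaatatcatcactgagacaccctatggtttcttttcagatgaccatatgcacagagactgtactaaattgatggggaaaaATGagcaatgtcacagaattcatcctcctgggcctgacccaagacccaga
Olfr1263: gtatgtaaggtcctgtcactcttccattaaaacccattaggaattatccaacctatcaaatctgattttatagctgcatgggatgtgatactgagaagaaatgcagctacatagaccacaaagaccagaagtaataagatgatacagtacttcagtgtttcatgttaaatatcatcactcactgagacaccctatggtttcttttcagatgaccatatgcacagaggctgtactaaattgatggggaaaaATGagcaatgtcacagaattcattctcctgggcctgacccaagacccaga

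A second trio is shown because its members lay far apart between the sorted fractions. Olfr1252 (chr2:89722060-89722109), Olfr1238 (chr2:89407028-89407077) and Olfr1241 (chr2:89483084-89483133) are on the minus strand, and capitals again mark where the 3 are not all the same. Olfr1252 shares 45 of 50 bases with Olfr1238 and 43 with Olfr1241, and Olfr1238 shares 45 with Olfr1241.
Olfr1252: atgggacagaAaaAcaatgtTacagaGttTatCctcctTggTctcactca
Olfr1238: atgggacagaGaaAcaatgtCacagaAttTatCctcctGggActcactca
Olfr1241: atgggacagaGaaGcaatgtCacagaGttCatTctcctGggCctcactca

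The remaining starts belong to receptors described in detail below, with the start codon in capitals. Olfr1178 (chr2:88391249-88391298), Olfr1176 (chr2:88339567-88339616), Olfr1302 (chr2:111780313-111780362) and Olfr1284 (chr2:111379002-111379051) are on the plus strand. Olfr1264 (chr2:90022015-90022064), Olfr1195 (chr2:88683681-88683730) and Olfr1200 (chr2:88768264-88768313) are on the minus strand.
Olfr1178: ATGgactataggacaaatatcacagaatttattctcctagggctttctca
Olfr1176: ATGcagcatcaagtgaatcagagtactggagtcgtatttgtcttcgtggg
Olfr1302: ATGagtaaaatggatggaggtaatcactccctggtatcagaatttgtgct
Olfr1284: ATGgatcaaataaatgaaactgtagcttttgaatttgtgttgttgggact
Olfr1264: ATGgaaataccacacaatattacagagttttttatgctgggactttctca
Olfr1195: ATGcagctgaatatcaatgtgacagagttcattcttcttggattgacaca
Olfr1200: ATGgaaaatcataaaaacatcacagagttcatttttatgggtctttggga

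The windows were also searched on both strands for a pair of patterns. TAATTA, a core that many homeodomain proteins bind, was in 24 of the members' 90 windows (26.7%), in 17.8% of the windows of other odorant receptors and in 5.29% of all windows in the table. The core bound by the Olf1/EBF factors was in 0 of the members' 90 windows, in 0.585% of the windows of other odorant receptors and in 0.904% of all windows. The shares of A and T in these windows were 67.1%, 63.6% and 46.2%. These are counts of letters, in windows of which many hold coding sequence.

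The sort comparisons ask which receptors were more abundant in GFP-positive than in GFP-negative cells. Most members were. In odor mice 67 of 104 were called higher in GFP-positive cells (33.5% of all genes were), 6 lower (18.7% of all genes) and 31 were not called, at a limma adjusted p under 0.05 over all genes. In vehicle mice the counts were 71 higher (29.9% of all genes), 4 lower (18.2% of all genes) and 29 not called. The small counts of lower calls moved with the settings. Array weights gave 3 lower in odor mice and 8 in vehicle mice, and putting the 7 left-out numbers back gave 10 and 7. The members' median difference came to 0.80 in odor mice and 0.91 in vehicle mice (log2), beside 0.64 and 0.75 for the 911 other odorant receptors and 0.13 and 0.06 for all genes. Among the other receptors 512 were called higher and 120 lower in odor mice, and 539 and 109 in vehicle mice. The 122 receptors Olfr987 to Olfr1170, the first part of the same cluster, had 72 higher and 17 lower in odor mice, and 76 and 15 in vehicle mice. No test sets the members' shares against those of the other receptors.

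These directions are relative to all genes on the array. When each array's receptors were centred on the receptors' own median, 25 members were called higher and 21 lower in odor mice, and again 25 and 21 in vehicle mice, with p adjusted over the receptors. The groups did not overlap for 70 members that were higher and 7 that were lower in GFP-positive cells of odor mice (40.4% and 20.4% of all genes), and for 72 and 3 in vehicle mice (35.3% and 22.0%). The leukocyte sums given above also separate the fractions, and their part in these differences was not tested.

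The 2 sort comparisons rest on different mice and share no array. As they come from 1 fit, both use the same estimate of each gene's spread, and their calls are not fully independent. Across the 104 genes, which are not independent replicates, their differences correlated with a Pearson r of 0.952 and with a Spearman rho that reached 0.931. They had the same sign for 96 members, 82 above 0 and 14 below. Both comparisons called 64 members higher and 3 lower, 23 were called in neither, and 0 were called in opposite directions. Over all 19938 genes these counts were 5105, 3292, 8342 and 0. Over the 911 other odorant receptors they were 472, 102, 205 and 0, so the lack of opposite calls is not particular to the members. Of the members called in 1 treatment only, Olfr1173, Olfr1193, Olfr1216, Olfr1226, Olfr1259, Olfr1298 and Olfr1317 were higher in vehicle mice, and Olfr1179, Olfr1180 and Olfr1200 in odor mice. None of these differences between treatments was called in the interaction described below. With the pool of mice as a block, Olfr1173, Olfr1193, Olfr1226, Olfr1298 and Olfr1317 were called higher in odor mice as well.

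**Figure D1:**
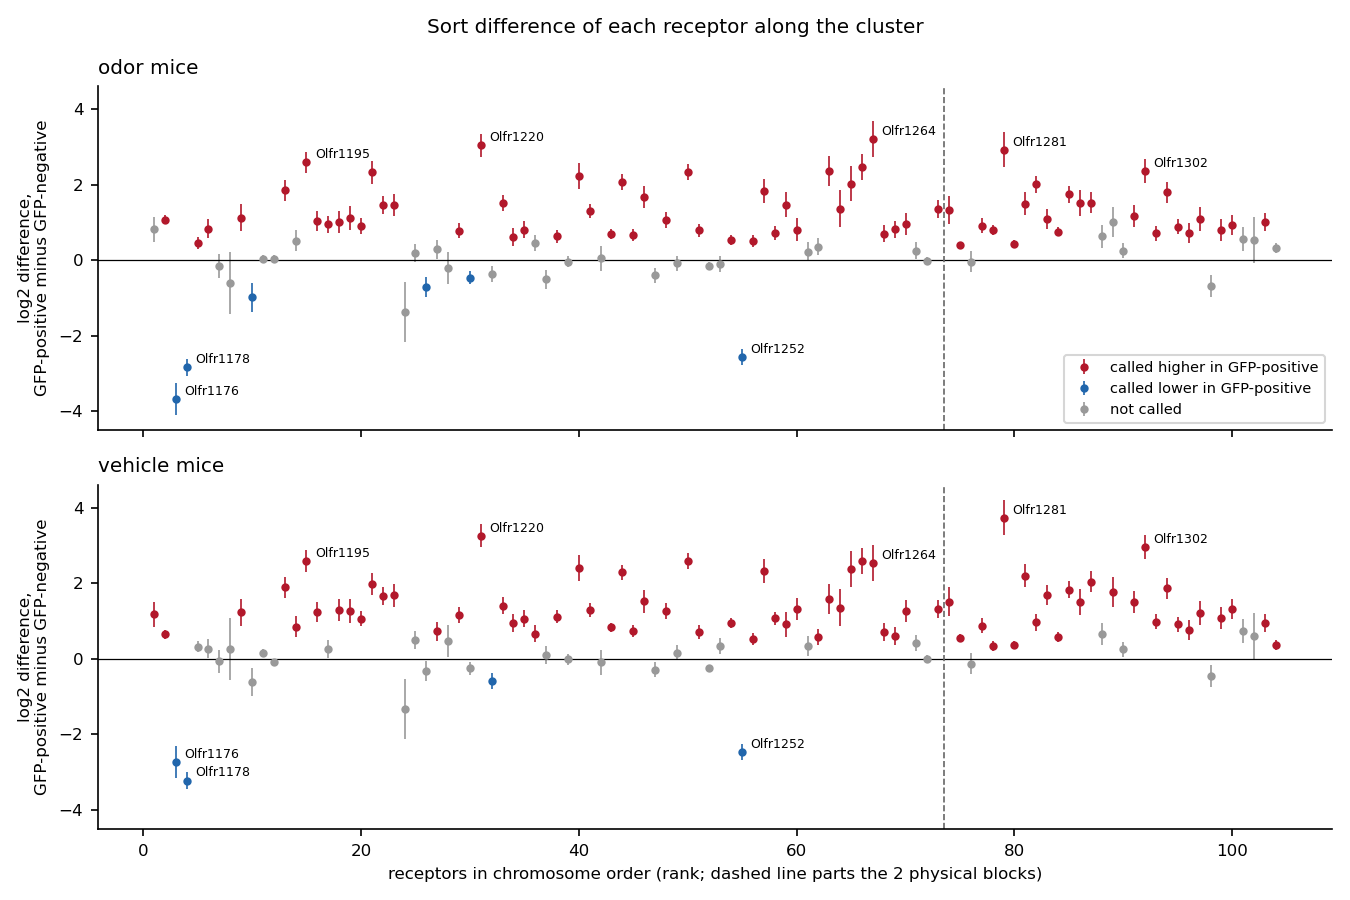
Difference between GFP-positive and GFP-negative cells (log2, vertical axis, point with the SE of the fit) for each of the 104 receptors in chromosome order (horizontal axis), in odor mice above and vehicle mice below. Red points were called higher, blue lower and grey not called, and names mark 8 receptors described in the text. The 3 receptors far below 0, Olfr1176, Olfr1178 and Olfr1252, stand in the first block in both treatments.

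More than 4-fold higher in GFP-positive cells were 13 members in odor mice and 13 in vehicle mice, 10 of them in both. The same count was not made over all genes or over the other receptors. The largest differences of the other receptors were 3.93 in odor mice and 3.86 in vehicle mice. Olfr1281, of family MOR248, was among the members past 4-fold in both treatments. Its log2 values were 7.42, 7.26 and 6.13 in GFP-positive and 4.03, 4.60 and 3.43 in GFP-negative cells of odor mice, and 8.16, 7.28 and 7.05 against 4.75, 3.48 and 3.06 in vehicle mice. Every GFP-positive array was above every GFP-negative one, by 2.92 (SE 0.46, limma adjusted p = 0.000239) in odor mice and by 3.73 (SE 0.46, adjusted p = 4.04e-05) in vehicle mice. All GFP-negative values of Olfr1281 lay below the lowest of the 12 arrays' lower quartiles (5.65), so the size of its differences is uncertain, and the gene is also named on a probe set with several receptor symbols that was left out.

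Olfr1220, of family MOR233, read 8.71, 8.96 and 8.64 in GFP-positive and 5.92, 6.0 and 5.28 in GFP-negative cells of odor mice, and 9.29, 8.80 and 8.81 against 6.43, 5.71 and 4.98 in vehicle mice. The fractions did not overlap, and differed by 3.04 (SE 0.30, limma adjusted p = 4.77e-06) in odor mice and 3.26 (SE 0.30, adjusted p = 2.91e-06) in vehicle mice. Its neighbours lay below 0, where Olfr1219 had differences of -0.46 in odor mice and -0.25 in vehicle mice, and Olfr1221 of -0.36 and -0.58. Olfr1221 was dim, with all 12 values below the lowest of the arrays' lower quartiles (5.65).

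Olfr1264, the only member of MOR236, had the largest difference above 0 of any member in odor mice. It read 12.09, 12.14 and 11.65 in GFP-positive and 9.01, 9.36 and 7.91 in GFP-negative cells of odor mice, and 12.48, 12.08 and 11.79 against 10.55, 9.85 and 8.34 in vehicle mice. The differences were 3.20 (SE 0.48, 9.19-fold, limma adjusted p = 0.000148) and 2.54 (SE 0.48, 5.81-fold, adjusted p = 0.000796), with no overlap in either treatment. GFP-negative arrays differed most among themselves, by over 2 log2 units between the vehicle pools of replicates 1 and 4.

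Its neighbours, the MOR234 trio shown above whose coding sequences begin with nearly the same letters, were all called higher. In odor mice the differences were 1.37 for Olfr1261, 2.03 for Olfr1262 and 2.47 for Olfr1263, and in vehicle mice 1.35, 2.38 and 2.59. How far the probe sets of the 3 read each other's RNA was not tested, so their values may not be separate measurements. With Olfr1260 (2.35 in odor and 1.58 in vehicle mice), Olfr1264 and members further along, they form a run of 8 neighbouring members up to Olfr1270 that were higher in both treatments. A run is counted over members alone, so numbers that were left out or not measured are passed over.

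Olfr1302, in the second block and of family MOR248, read 9.22, 8.46 and 8.70 in GFP-positive and 6.66, 6.12 and 6.52 in GFP-negative cells of odor mice, and 8.48, 9.34 and 9.32 against 6.83, 5.87 and 5.56 in vehicle mice. It was higher by 2.36 in odor mice (SE 0.32, limma adjusted p = 7.2e-05) and by 2.96 in vehicle mice (SE 0.32, adjusted p = 1.22e-05). Olfr1195, of family MOR230, differed by the same amount under both treatments, 2.59 (SE 0.29) in odor and 2.59 (SE 0.29) in vehicle mice. The other members with the largest rises were Olfr1246 (2.34 in odor and 2.59 in vehicle mice), Olfr1231 (2.23 and 2.41), Olfr1209 (2.32 and 1.99) and Olfr1254 (1.83 and 2.32).

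Lower in GFP-positive cells under both treatments were Olfr1176, Olfr1178 and Olfr1252. Olfr1178, of family MOR225, read 5.05, 5.81 and 5.53 in GFP-positive and 8.56, 8.31 and 8.05 in GFP-negative cells of odor mice, and 5.15, 5.06 and 4.85 against 8.47, 8.59 and 7.67 in vehicle mice. It was lower by a margin that no array crossed, with differences of -2.84 (SE 0.24, limma adjusted p = 1.09e-06) in odor mice and -3.22 (SE 0.24, adjusted p = 4.03e-07) in vehicle mice. All 6 of its GFP-positive values lay within or below the range of the arrays' lower quartiles (5.65 to 5.83).

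Olfr1176, of family MOR174, read 6.23, 6.93 and 8.07 in GFP-positive and 10.74, 10.47 and 11.04 in GFP-negative cells of odor mice, and 7.45, 8.92 and 7.77 against 10.58, 11.06 and 10.67 in vehicle mice. Its GFP-negative arrays lay close together and its GFP-positive arrays were spread widely. The differences were -3.67 (SE 0.42, limma adjusted p = 1.94e-05) in odor mice and -2.73 (SE 0.42, adjusted p = 0.00021) in vehicle mice. The other MOR174 member, the pseudogene Olfr1174, went the opposite way and was higher by 1.07 in odor mice and 0.64 in vehicle mice, both called.

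Olfr1252 read 5.63, 6.37 and 5.71 in GFP-positive and 8.86, 8.10 and 8.43 in GFP-negative cells of odor mice, and 5.66, 6.08 and 6.08 against 8.33, 8.57 and 8.36 in vehicle mice. It was lower by 2.56 (difference -2.56, SE 0.21, limma adjusted p = 1.07e-06) in odor mice and by 2.48 (difference -2.48, SE 0.21, adjusted p = 1.65e-06) in vehicle mice. Olfr1238, whose coding sequence begins with nearly the same letters, read 10.02, 10.23 and 10.21 in GFP-positive and 8.21, 8.41 and 7.62 in GFP-negative cells of odor mice, and 10.15, 10.18 and 10.17 against 8.33, 7.80 and 7.50 in vehicle mice. Its differences were 2.07 (SE 0.21) and 2.29 (SE 0.21), called higher in both treatments, and the third of the trio, Olfr1241, had -0.40 in odor and -0.29 in vehicle mice and was called in neither. Olfr1252 is also named on a probe set with several receptor symbols that was left out.

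**Figure D2:**
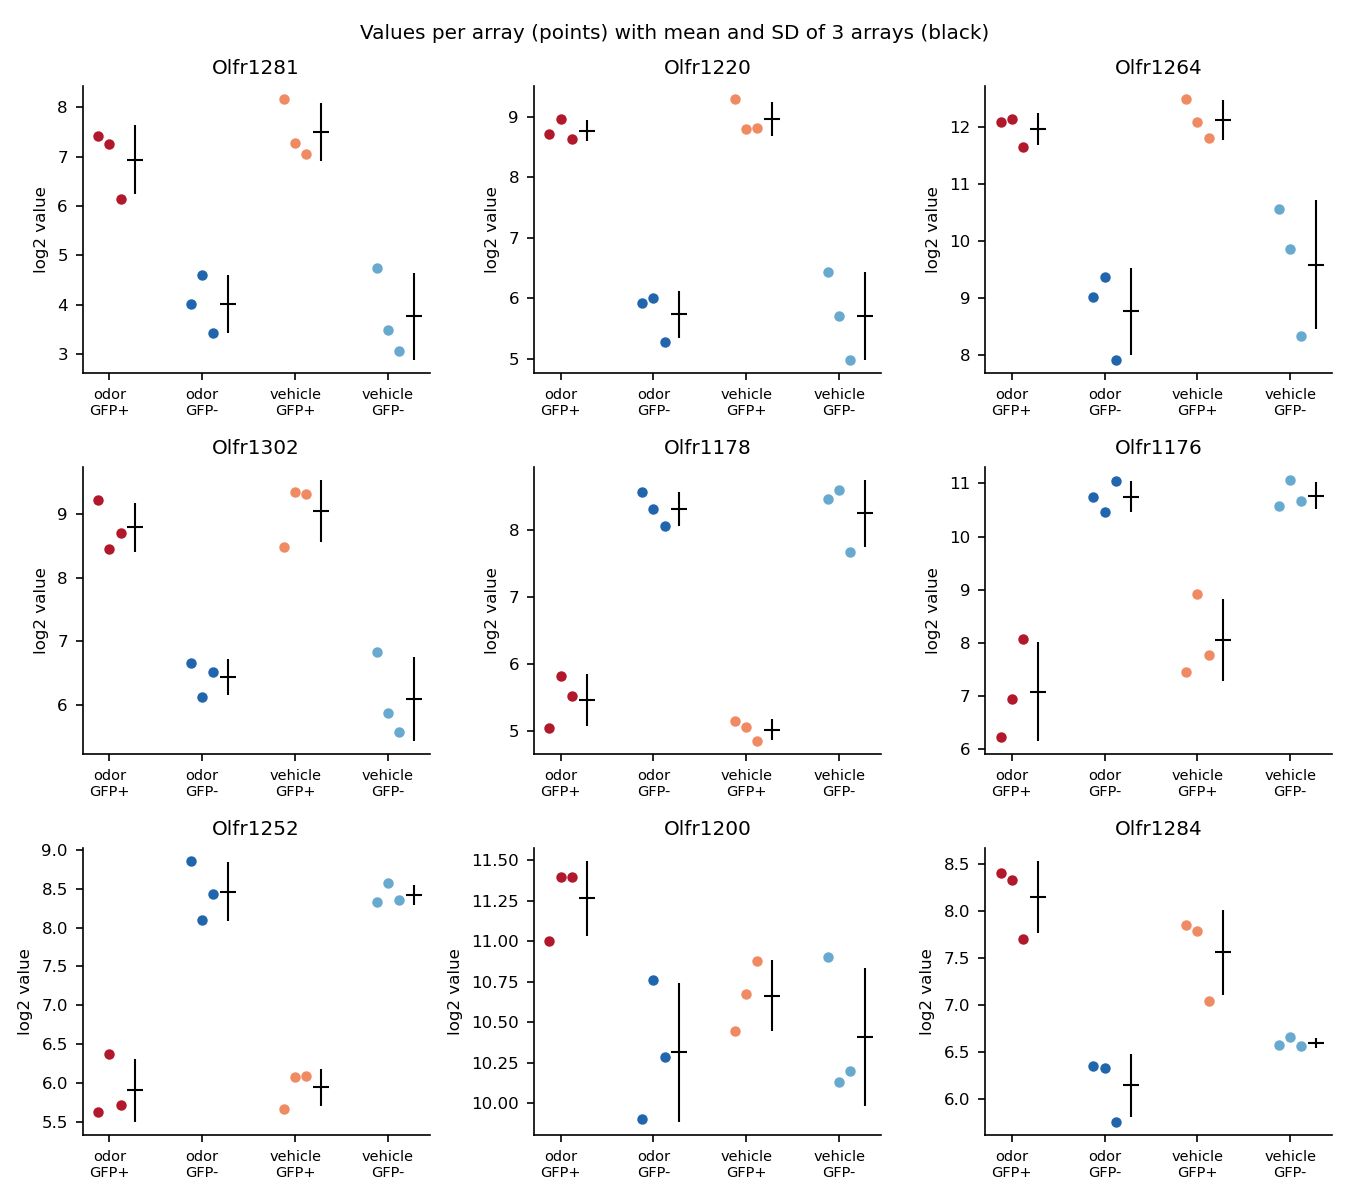
Deposited log2 value (vertical axis, a separate scale for each receptor) of 9 receptors on each of the 12 arrays, in the 4 groups. Points are arrays, and the black bar is the mean with the SD of 3 arrays. The fractions are apart in both treatments for Olfr1281, Olfr1220, Olfr1264, Olfr1302, Olfr1178, Olfr1176, Olfr1252 and Olfr1284, and for Olfr1200 in odor mice only. In GFP-positive cells odor and vehicle arrays are apart only for Olfr1200 among the 9.

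The remaining lower calls held in 1 treatment each and were small. In odor mice Olfr1184 had -0.99 (SE 0.38, limma adjusted p = 0.0439), Olfr1215 -0.72 (SE 0.27, adjusted p = 0.0414) and Olfr1219 -0.46 (SE 0.17, adjusted p = 0.036). In vehicle mice Olfr1221 had -0.58 (SE 0.21, adjusted p = 0.0387). Its values on all 12 arrays lay below the lowest of the arrays' lower quartiles (5.65), so the size of this difference is uncertain. With the pool of mice as a block the calls of Olfr1215 (adjusted p = 0.0573) and Olfr1219 (adjusted p = 0.0534) ended, and leaving out single arrays ended each of the 4 calls at least once. Without odor GFP-positive replicate 2, or without replicate 3, 3 members were called lower in odor mice.

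At the ends of the range, Olfr1173 had 0.82 in odor mice (SE 0.34, limma adjusted p = 0.0587) and 1.18 in vehicle mice (SE 0.34, adjusted p = 0.0112). Olfr1317 had 0.31 (SE 0.13, adjusted p = 0.0643) and 0.36 (SE 0.13, adjusted p = 0.0362). Dim signals limit part of the cluster. In 15 members the means of all 4 groups lay below the highest array's lower quartile of 5.83, and of these 6 were called higher in at least 1 treatment, 1 lower and 8 in neither. The 5 lowest deposited means belonged to Olfr1248, Olfr1245, Olfr1232, Olfr1199 and Olfr1180, among which Olfr1199 (1.03 in odor and 1.24 in vehicle mice) and Olfr1232 (1.31 and 1.29) were called higher in both. The 5 with the highest deposited means were Olfr1222 (1.51 in odor and 1.41 in vehicle mice), Olfr1200 (0.95 and 0.26), Olfr1264 (3.20 and 2.54), Olfr1219 (-0.46 and -0.25) and Olfr1253 (0.52 and 0.54). Deposited means of different probe sets are not on 1 scale, so this order is not an order of RNA amounts.

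In the first block of 73, 44 members were called higher and 6 lower in odor mice, and 46 and 4 in vehicle mice. In the second block of 31, 23 were called higher and 0 lower in odor mice, and 25 and 0 in vehicle mice. When the pool of mice was fitted as a replicate block, Olfr1310 among these 31 was called lower under both treatments. The 7 left-out numbers are not in these block counts. With them put back, 10 receptors were lower in odor and 7 in vehicle mice over both blocks. Block medians were 0.72 and 0.92 in odor mice and 0.83 and 0.96 in vehicle mice, first block then second, and the difference between blocks was not tested. The longest run of neighbouring members that were higher in both treatments, 11 receptors from Olfr1278 to Olfr1294, lies in the second block. It also passes over numbers that were left out or not measured, so it need not be unbroken on the chromosome.

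By family, MOR245 with 19 members had 15 called higher in odor mice and 16 in vehicle mice. MOR248 with 12 had 8 and 9, and in the fit without a block 0 were lower in either family. The 7 left-out numbers are not in the family counts either. With the pool of mice as a block, Olfr1310 of MOR245 was called lower under both treatments. Its differences were -0.69 in odor mice (limma adjusted p = 0.00312) and -0.46 in vehicle mice (adjusted p = 0.0237). MOR231 with 15 had 11 and 11 higher, and MOR230 with 7 had 6 and 6. MOR233 with 18 had 9 higher and 2 lower in odor mice, and 11 higher and 1 lower in vehicle mice, with differences from -1.37 to 3.04 in odor mice. MOR225 with 7 had mixed values, with 3 higher and 2 lower in odor mice, and 0 higher and 1 lower in vehicle mice. Both members of MOR238, Olfr1188 and Olfr1233, lay near 0 in both treatments and were not called.

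**Figure D3:**
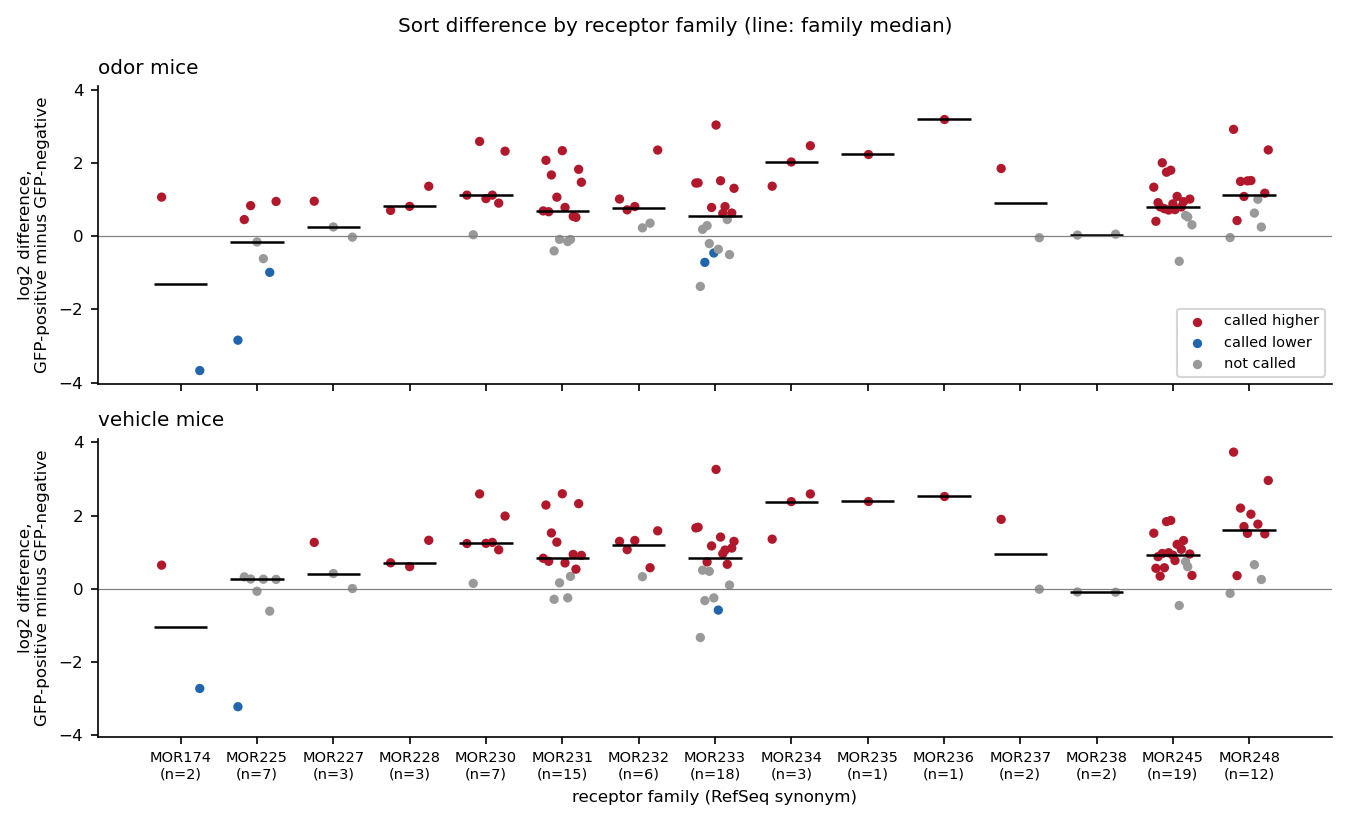
Difference between GFP-positive and GFP-negative cells (log2, vertical axis) of the 101 receptors with 1 MOR family (horizontal axis), in odor mice above and vehicle mice below. Points are receptors, coloured by call, and the black line is the family's median. MOR233 spreads from -1.37 to 3.04 in odor mice, and MOR245 and MOR248 hold no receptor called lower in this fit, which has no block.

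Values of neighbours lay about as far apart as those of other pairs. The difference between the sort differences of 2 members of the same block had a median size of 0.931 in odor mice and 0.929 in vehicle mice over all 3093 pairs. Over the 102 pairs of neighbouring members the size came to 0.929 in odor mice and 0.987 in vehicle mice. Receptors left out or not measured may lie between such neighbours. Over 564 pairs of the same family it was 0.828 and 0.748, and over 2529 pairs of different or unknown family 0.962 and 0.968. Pairs share receptors, so these medians are descriptions and no test was made. Olfr1249, Olfr1251 and Olfr1253, whose first 50 coding bases are identical, had differences of -0.09, 0.54 and 0.52 in odor mice and 0.34, 0.94 and 0.54 in vehicle mice, where the first was not called and the others were.

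Genes that act with the receptors were higher in GFP-positive cells as well. Of 28 genes for transduction, receptor trafficking and receptor choice, 23 were called higher and 2 lower in odor mice, and 22 and 2 in vehicle mice. Of all genes 33.5% were called higher and 18.7% lower in odor mice, and 29.9% and 18.2% in vehicle mice. The phosphodiesterase Pde1c was higher by 0.93 in odor mice (limma adjusted p = 4.64e-05) and 0.86 in vehicle mice, and the homeobox gene Emx2 by 0.81 and 0.77. The 2 lower genes were Lbr, the lamin B receptor of the nuclear envelope, with -1.91 in odor and -1.80 in vehicle mice, and Cbx5, a heterochromatin protein, with -0.29 and -0.36. Of 10 genes known to follow sensory neuron activity, 8 were called higher and 1, Rasgrp4, lower in odor mice, and 7 and 1 in vehicle mice, beside the same shares of all genes. Among the higher were Pcdh10 (1.43 in odor and 1.23 in vehicle mice) and Lrrc3b (1.40 and 1.36). Neither list had a gene called between odor and vehicle in either fraction.

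The odor comparison in GFP-positive cells asks whether a receptor became more or less abundant among GFP-positive cells after exposure to the citrus accord. Here 0 members were called higher (0.00502% of all genes were, which is 1 gene, a receptor of another cluster) and 0 lower (0% of all genes) by limma. At an unadjusted p under 0.05 were 4 members, 3.85%, beside 1.30% of all genes and 3.07% of other odorant receptors. The members' median difference was -0.03, with 42 of 104 above 0, beside -0.05 for other receptors and 0.00 for all genes. Its sign turned without odor GFP-positive replicate 4 (0.04) or vehicle GFP-positive replicate 1 (0.07). The SE of a member's difference had a median of 0.25, against 0.0968 over all genes, so that this design measured receptors less precisely than most genes.

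The 5 members with the smallest p were Olfr1276, Olfr1200, Olfr1284, Olfr1176 and Olfr1180, all with a limma adjusted p of 1.00. Olfr1200, of family MOR225, read 11.00, 11.40 and 11.40 in GFP-positive cells of odor mice, against 10.44, 10.67 and 10.88 in vehicle mice. It was the only member whose odor arrays all lay above its vehicle arrays in this fraction (4.49% of all genes did), and 0 members lay below (3.45% of all genes). The difference was 0.60 (SE 0.23). In GFP-negative cells it read 9.90, 10.76 and 10.29 in odor mice and 10.90, 10.13 and 10.20 in vehicle mice, which overlap (difference -0.09, SE 0.23).

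Olfr1284, of family MOR245 in the second block, read 8.41, 8.34 and 7.71 in GFP-positive cells of odor mice, against 7.86, 7.79 and 7.04 in vehicle mice. The groups overlap, since odor replicate 4 lies below vehicle replicates 1 and 2, and the difference was 0.59 (SE 0.23). In GFP-negative cells it read 6.36, 6.33 and 5.75 in odor mice and 6.57, 6.66 and 6.56 in vehicle mice, where all odor arrays were lower (difference -0.45, SE 0.23).

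Olfr1276 had -0.24 (SE 0.08), a small difference measured with a small error on a probe set near the dim end (5.92 to 6.06 in odor mice and 6.06 to 6.36 in vehicle mice). Olfr1176, already lower in GFP-positive cells, had -0.97 (SE 0.42). Olfr1180 had 0.53 (SE 0.25), which rests on a value of 5.68 in odor replicate 2, against 4.44 and 4.62 in replicates 3 and 4 and 4.20 to 4.69 in vehicle mice.

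GFP-positive arrays with the same number in the sample codes deviated together across treatments, with correlations of 0.309, 0.185 and 0.268. With that number as a block over the 6 GFP-positive arrays alone, a fit chosen after seeing the data, the SE of Olfr1284 was 0.05 and that of Olfr1200 was 0.06. Still 0 members and 0 of all genes were called, with a limma adjusted p of 0.434 for Olfr1284 and 0.618 for Olfr1200. In this fit 12 members had an unadjusted p under 0.05, 11.5%, beside 4.85% of all genes.

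In GFP-negative cells the same comparison called 0 members and 0 of all genes in either direction (0% each), with a smallest adjusted p of 0.732 by limma. At an unadjusted p under 0.05 were 3 members, 2.88%, beside 6.53% of all genes. With the number in the sample codes as a block over the GFP-negative arrays alone, a fit added after seeing the data, that count was 19 members, 18.3%, beside 3.88% of all genes, and 0 members were called, with a smallest adjusted p of 0.804 by limma. Arrays with the same code number did not all deviate together in this fraction. The median difference was 0.13, with 72 of 104 members above 0, beside 0.03 for other receptors and -0.01 for all genes. This median turned to -0.01 without odor GFP-negative replicate 2 and to -0.05 without vehicle GFP-negative replicate 4. The groups did not overlap for Olfr1186 (0.19) and Olfr1286 (0.44), which were higher in odor mice (2.79% of all genes were), and for Olfr1174 (-0.28) and Olfr1284, which were lower (4.65% of all genes).

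The smallest p in this fraction belonged to Olfr1279, which read 5.70, 6.16 and 5.83 in odor mice and 6.31, 6.07 and 6.36 in vehicle mice. The ranges overlap, and the difference was -0.35 (SE 0.13). Olfr1251 had 0.32 (SE 0.13), Olfr1174 -0.28 (SE 0.12) and Olfr1229 0.35 (SE 0.17), all with a limma adjusted p of 0.732. Olfr1264 had the largest difference of any member in size among GFP-negative cells, -0.82, but with an SE of 0.48.

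The GFP-negative arrays with the most leukocyte signal had the lowest receptor medians within each treatment. In odor mice the members' medians of replicates 2, 3 and 4 were 7.38, 6.93 and 6.76, beside leukocyte sums of 31172, 38393 and 42851. In vehicle mice the medians of replicates 1, 2 and 4 were 7.14, 6.98 and 6.43, beside sums of 31790, 31752 and 37387. The summed mature neuron markers of the same arrays fell in the same order as the medians. They were 63720, 56121 and 53319 in odor mice, and 61461, 60545 and 53981 in vehicle mice. The part of the other cells in the odor differences of this fraction was not tested. In GFP-positive cells the medians were 8.14, 7.82 and 7.81 in odor mice and 8.11, 7.86 and 7.87 in vehicle mice.

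**Figure D4:**
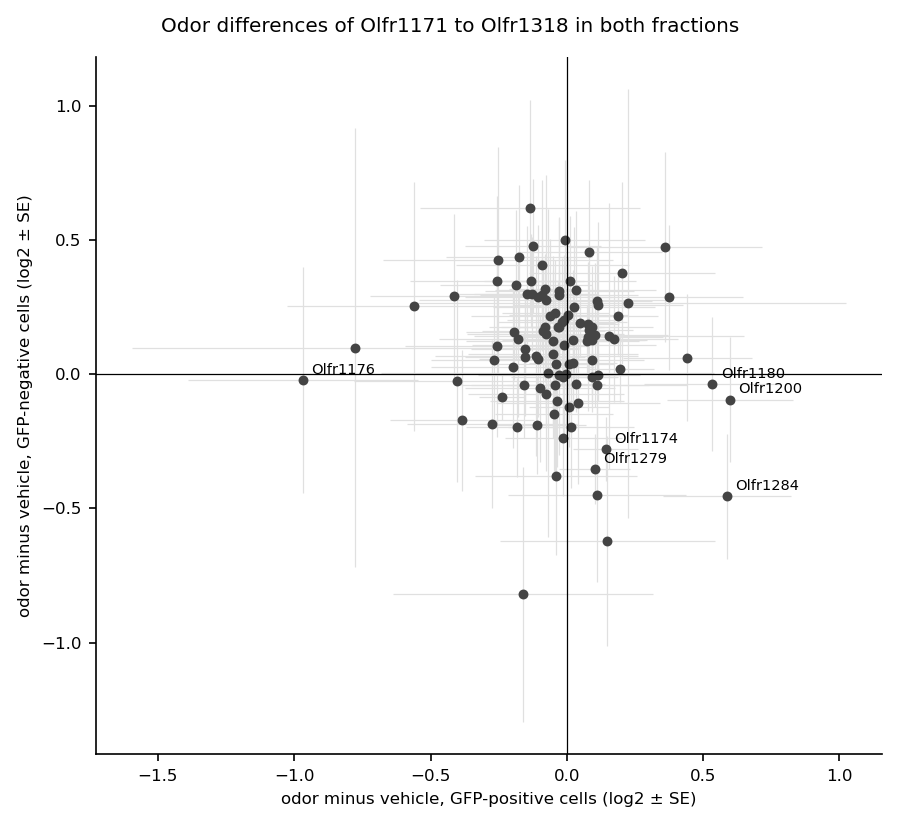
Odor minus vehicle difference (log2 with the SE of the fit as grey lines) of each of the 104 receptors in GFP-positive cells (horizontal axis) and in GFP-negative cells (vertical axis), which share no array. Names mark 6 of the receptors with the smallest unadjusted p in a comparison, none of which was called. Most receptors lie within 0.5 of 0 on both axes, and Olfr1284 stands at 0.59 and -0.45.

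**Figure D5:**
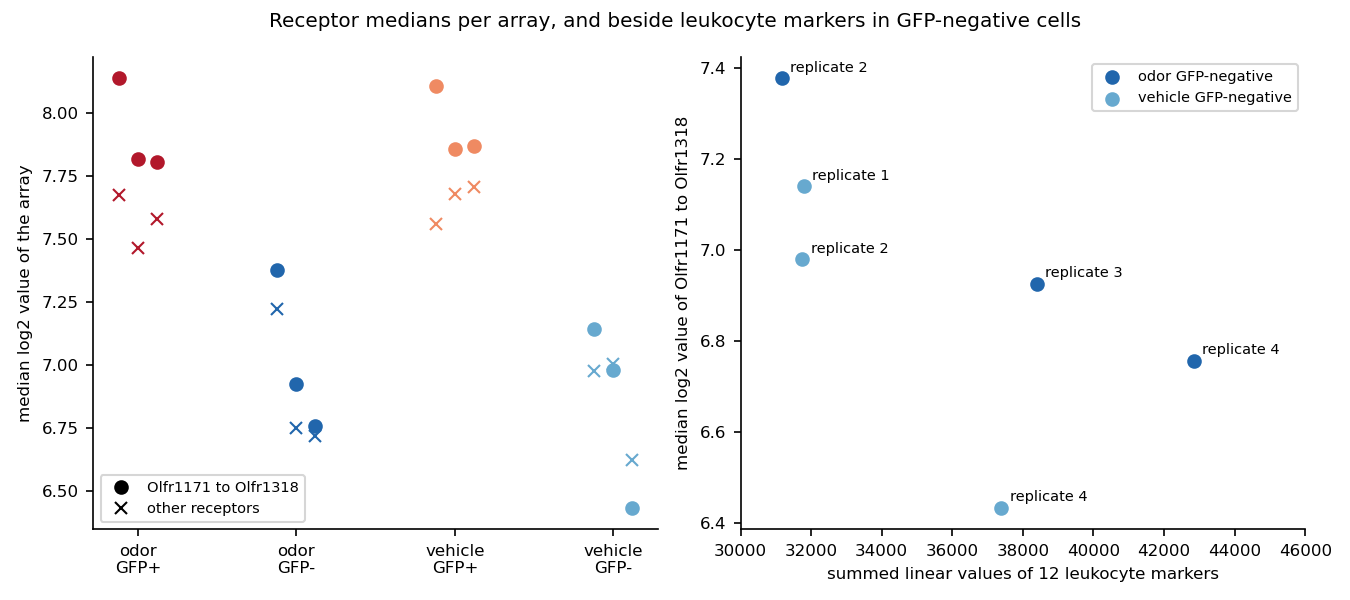
Left, the median log2 value of the 104 receptors (dots) and of the other 911 odorant receptors (crosses) on each array by group. Right, the receptors' median on the 6 GFP-negative arrays (vertical axis) against the summed linear values of 12 leukocyte markers (horizontal axis, which does not start at 0). The odor replicate 2 array has the highest median among GFP-negative arrays, 7.38, and the vehicle replicate 4 array the lowest, 6.43.

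The interaction asks whether a receptor's sort difference in odor mice differed from that in vehicle mice. It called 0 members higher (0.00502% of all genes were) and 0 lower (0% of all genes), with a smallest adjusted p of 0.971 by limma, and 3 members, 2.88%, had an unadjusted p under 0.05, beside 4.23% of all genes. The members' median was -0.14, with 27 of 104 above 0, beside -0.08 for other receptors and 0.02 for all genes. This median was -0.01 without odor GFP-negative replicate 2, -0.00233 without vehicle GFP-negative replicate 4, -0.07 without vehicle GFP-positive replicate 1, -0.25 without vehicle GFP-negative replicate 1 and -0.21 without odor GFP-negative replicate 4, and array weights turned it to 0.05. Olfr1284 had the smallest p. Its sort difference was 2.01 (SE 0.23) in odor mice and 0.96 (SE 0.23) in vehicle mice, and the interaction was 1.04 (SE 0.33). The following were Olfr1174 with 0.42 (SE 0.17), Olfr1279 with 0.46 (SE 0.18), Olfr1200 with 0.69 (SE 0.33) and Olfr1251 with -0.40 (SE 0.19). Olfr1264, with sort differences of 3.20 in odor and 2.54 in vehicle mice, had an interaction of 0.66 (SE 0.67), and Olfr1281 of -0.81 (SE 0.66), both smaller than 1.5 times their error.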

How the data were processed

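The members, the gene lists and the comparisons were chosen with earlier results of these data known. The authors deposited log2 values per probe set, and the submitters' processing notes name Affymetrix Expression Console. Version, summarization and scaling between arrays are unstated there. The values, from 2.42 to 14.1, were used as deposited. Array intensity gives no depth, so precision is limited by the number of arrays.

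Of 35556 probe sets, 21789 had 1 gene symbol, 1621 had several and 12146 had none, and those with several or none were left out. The table held 0 columns of other samples. Where a gene had several probe sets, as Olfr1289 and Olfr1316 among the members, the one with the highest mean was kept. Of the members, 13 are also named on the 9 several-symbol probe sets with receptors of the range.

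With limma 3.58.1 (R 4.3.3) 1 model of the 4 group means was fitted without a block, and p-values were adjusted by Benjamini-Hochberg over 19938 genes at 0.05. The procedure was tested on simulated data, and the outcome of that is not given here. Sums of markers are of linear values. Same-numbered arrays of a treatment come from the same pool, as 18 mice and 3 per sample imply. Deviations of such pairs correlated by 0.252, 0.172 and 0.124 in odor pools and 0.113, 0.0732 and 0.111 in vehicle pools. Sequences are from RefSeq tables for GRCm38.p6, and 16 members had none. Named receptors are those with the 10 largest differences in each direction among calls of each sort comparison, the 5 smallest p of the other comparisons, the 5 highest and 5 lowest means and the ends of the range. Protein identity was not computed. All other receptors that are named, and Cbx5 and Rasgrp4, were chosen after their values were seen. Tables and figures were made with pandas 2.3.3, numpy 2.4.6 and matplotlib 3.10.9 in Python 3.11.15. Alternatives changed the normalization, filter, probe set rule, variance model, block and arrays, 1 at a time, except that centring the receptors also changed the set over which p was adjusted, and that the code-number fits on 1 fraction also changed the arrays.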

Additional observations from a re-analysis of the deposited data

How the results depend on the processing

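The counts between odor and vehicle and in the interaction were 0 members in every alternative run. In the sort, centring the receptors on their own median gave 25 higher and 21 lower in odor mice and 25 and 21 in vehicle mice. That setting also adjusted p over the receptors alone, and the effects of the centring and of the set adjusted over were not separated. Array weights gave 3 lower in odor mice and 8 in vehicle mice, and putting the 7 left-out numbers back gave 10 and 7 lower. Leaving out each array gave 59 to 71 higher and 3 to 7 lower in odor mice, and 59 to 71 higher and 3 to 5 lower in vehicle mice. The 3 lower in odor mice came without odor GFP-positive replicate 2 or 3. The causes were not tested.

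The pool as replicate block gave 73 higher and 5 lower in odor mice and 74 and 6 in vehicle mice. Of the 73 calls in odor mice 71 remained, and of the 75 in vehicle mice 75. The title number as replicate block gave 73 and 6 in both treatments, and the code number as replicate block 73 and 6 in odor and 71 and 5 in vehicle mice. On GFP-positive or GFP-negative arrays alone, fits added after seeing the data, the code number as replicate block called 0 members. In GFP-negative cells code-number pairs did not all deviate together (0.439, -0.206, 0.281). Cyclic loess lowered the all-gene median of the sort in odor mice to 0.02, against 0.13 as deposited, and gave 59 higher and 8 lower, and 63 and 6 in vehicle mice. Array weights turned the members' median between odor and vehicle in GFP-negative cells to -0.10, and the title block turned that in GFP-positive cells to 0.10.

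Of 1023 values of named receptors under alternatives, 991 kept their direction and side of the threshold, 32 lost the call and 0 reversed. The 991 include odor and interaction results that were not called to begin with. They also include fits without an array outside the comparison, where the difference cannot change. The sort results were named for their large differences, so the share that stayed does not measure stability. The losses were those of Olfr1184 (10 alternatives, adjusted p up to 0.159), Olfr1215 (9, up to 0.165), Olfr1219 (7, up to 0.146) and Olfr1221 (6, up to 0.172). Leaving out genes whose mean was below the lower quartile kept 81 members, of which 55 were called higher and 6 lower in odor mice, and 59 and 3 in vehicle mice. Signal over background limits the 15 members that were dim in all 4 groups.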

Other observations

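Olfr1213, of family MOR233, had widely spread values in GFP-positive cells, and was chosen after they were seen. In GFP-positive cells it read 9.73, 6.79 and 9.09 in odor mice and 9.92, 6.46 and 8.55 in vehicle mice, and in GFP-negative cells 10.00, 10.05 and 9.68 in odor mice and 10.19, 9.77 and 8.98 in vehicle mice. The low values are those of odor replicate 3 and vehicle replicate 2, which carry the same number in their sample codes. Its sort differences of -1.37 in odor and -1.33 in vehicle mice had an SE of 0.80 and were not called (limma adjusted p = 0.166 and 0.202), although they are among the most negative of all members.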
